A study of Mus musculus with 2 samples.

Results

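The genes described here are 10 genes of the circadian clock and its direct output: the PAR bZIP factors Dbp, Tef and Hlf, the REV-ERB receptors Nr1d1 and Nr1d2, the period genes Per1, Per2 and Per3, the clock activator Arntl (BMAL1) and the repressor Nfil3. They were found as every probe set whose single annotated symbol is one of these names, which gave 23 probe sets for the 10 genes, out of 18193 named genes on the array. The genes were chosen by their log2 differences between these same arrays, so their differences are given as a description and support nothing beyond it. mRNA levels were measured in whole hearts of C57BL/6J male mice, 10 weeks old, 3 days after the left anterior descending coronary artery was permanently ligated (infarct) or after a sham operation without ligation. Each group was a pool of RNA from 3 mice, measured on 1 array, so the groups were not replicated and could not be tested against each other, and pooling hides the spread between mice. All mice were kept in a light-dark cycle of 12 h. The hour at which the hearts were collected is not given in the sources used here, and a difference in hour between the groups cannot be told apart from the operation.

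The circadian clock is a transcriptional loop that runs in nearly every cell, cardiomyocytes included. The activators BMAL1 and CLOCK bind E-box sequences and switch on the period and cryptochrome genes, whose proteins then inhibit them. They also switch on the REV-ERB genes, whose proteins repress Arntl and Nfil3 through sites called ROREs, and the genes of DBP, TEF and HLF, which activate D-box sequences that the protein of Nfil3 represses. In tissues of the mouse the mRNAs of Nr1d1, Nr1d2, Dbp, Tef, Hlf and the period genes reach their daily peak between the middle of the light phase and the start of the dark phase. They are called day-phase genes here. Arntl and Nfil3 peak at a nearly opposite time, late in the dark phase, and are called night-phase genes.

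Sequences around the transcription start were read from RefSeq promoters of the assembly GRCm38.p6, each with 250 bases before the start and 50 after it. Of the 10 genes, 9 had at least 1 such window (12 windows in all), and Per2 had none. Both strands were searched for the E-box CACGTG, its variant CACGTT, the D-box TTANGTAA, the RORE consensus, the core AGGTCA (which can overlap the RORE consensus, and did in Arntl) and the cAMP element TGACGTCA. The stretches below are shown because each holds a match to a sequence through which clock factors are known to act. The match is in capitals, and on the strand shown it may read as the reverse complement of the motif. A core AGGTCA outside the RORE consensus is left in lower case, as in the stretch of Per1, where it reads TGACCT.
Per3 (GRCm38.p6, chr4:151044776-151044910, minus strand): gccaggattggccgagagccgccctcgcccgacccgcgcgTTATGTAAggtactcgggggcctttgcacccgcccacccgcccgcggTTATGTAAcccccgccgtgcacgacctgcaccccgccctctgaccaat
Per1 (GRCm38.p6, chr11:69098743-69098828, plus strand): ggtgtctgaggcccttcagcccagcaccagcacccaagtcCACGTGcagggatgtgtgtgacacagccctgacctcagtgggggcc
Tef, first start (GRCm38.p6, chr15:81802506-81802591, plus strand): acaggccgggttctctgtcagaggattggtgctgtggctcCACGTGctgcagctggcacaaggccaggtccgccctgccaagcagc
Tef, second start (GRCm38.p6, chr15:81811236-81811321, plus strand): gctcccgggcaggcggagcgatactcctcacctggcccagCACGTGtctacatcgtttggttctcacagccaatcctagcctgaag
Nr1d1 (GRCm38.p6, chr11:98775380-98775425, minus strand): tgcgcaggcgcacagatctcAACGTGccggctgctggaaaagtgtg
Arntl (GRCm38.p6, chr7:113207531-113207553, plus strand): aggcagAAAGTAGGTCAgggacg

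The E-box was found in 3 of the 12 windows, in Per1 and at both starts of Tef, against 7.15% of all 32851 promoter windows. The window of Per3 held the D-box at 2 places, whose first bases lie 205 and 158 bases before the start, and 2.32% of all windows held at least 1. A variant E-box lay 28 bases before the start of Nr1d1 (4.68% of all windows). The RORE consensus was found once, in Arntl, 27 bases into the transcript, and 0.384% of all windows held it. The core AGGTCA was present in Nr1d2, Per1, Nfil3 and Arntl (16.3% of all windows), and a cAMP element 9 bases before the start of Hlf (1.79%). The window of Dbp held none of the 6 motifs. Such matches are a description of the letters and no evidence of binding.

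All day-phase genes had lower values in infarcted hearts, Per1 only slightly (-0.14 on the log2 scale), and both night-phase genes had higher values. Differences are infarct minus sham on the log2 scale of the RMA values, and the probe set with the highest mean value stands for its gene. To be compared, that probe set had to reach the median of the array (6.36 in sham hearts and 6.35 in infarcted hearts) on at least 1 array. This applied to all 10 genes and to 11961 genes in total. Of the 10 genes, 5 were at least 2-fold lower, namely Dbp, Hlf, Nr1d1, Per3 and Nr1d2, whereas 1.26% of all genes compared were 2-fold lower. None was 2-fold higher, against 3.73% of all genes. Below 0 lay 8 of the 10 genes, against 49.8% of all genes. Since the genes were chosen for these differences, nothing is read from the contrast with all genes. The day-phase genes had a median of -1.09 (2.13-fold lower), the night-phase genes a mean of 0.87 (1.82-fold higher), and all genes compared a median of 0. Between the means of the 2 groups lay 1.91 on the log2 scale, a quantity in which an offset between the arrays cancels.

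**Figure D1:**
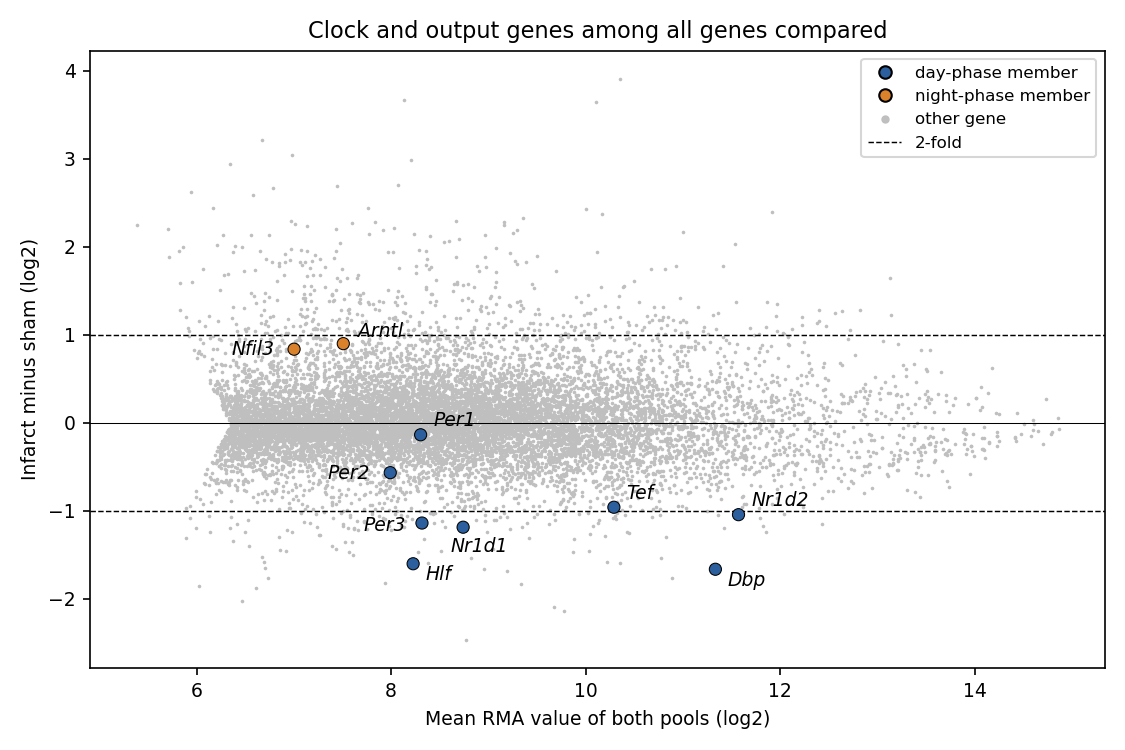
Infarct minus sham (log2) of each of the 11961 genes compared against its mean RMA value over both pools, with day-phase genes in blue, night-phase genes in orange, all other genes in grey and dashed lines at a 2-fold difference. Dbp (-1.67) and Hlf (-1.60) lay lowest of the clock genes, and Arntl (0.90) and Nfil3 (0.84) lay just under the upper line.

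The probe sets of the day-phase genes shared their direction. All 20 of them were lower in infarcted hearts, from -2.18 to -0.065, and 10 of them at least 2-fold. Of the 3 probe sets of the night-phase genes, all were higher, from 0.096 to 0.90. Counted by gene, 49.8% of all genes compared lay below 0 and 1.26% were 2-fold lower, and a share over all probe sets is not given here. Probe sets of the same gene, such as the 6 of Per3, read the same pools again, so these counts are not separate support. Dim on both arrays, below the array median, were 3 of the 23 probe sets (2 of Per3 and 1 of Arntl), and these included the smallest differences of either group. Over all genes with at least 2 bright probe sets (5190 genes), probe sets of the same gene differed by an SD of 0.23. This SD says nothing of how mice differ, and with so few arrays the precision of each value is limited.

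**Figure D2:**
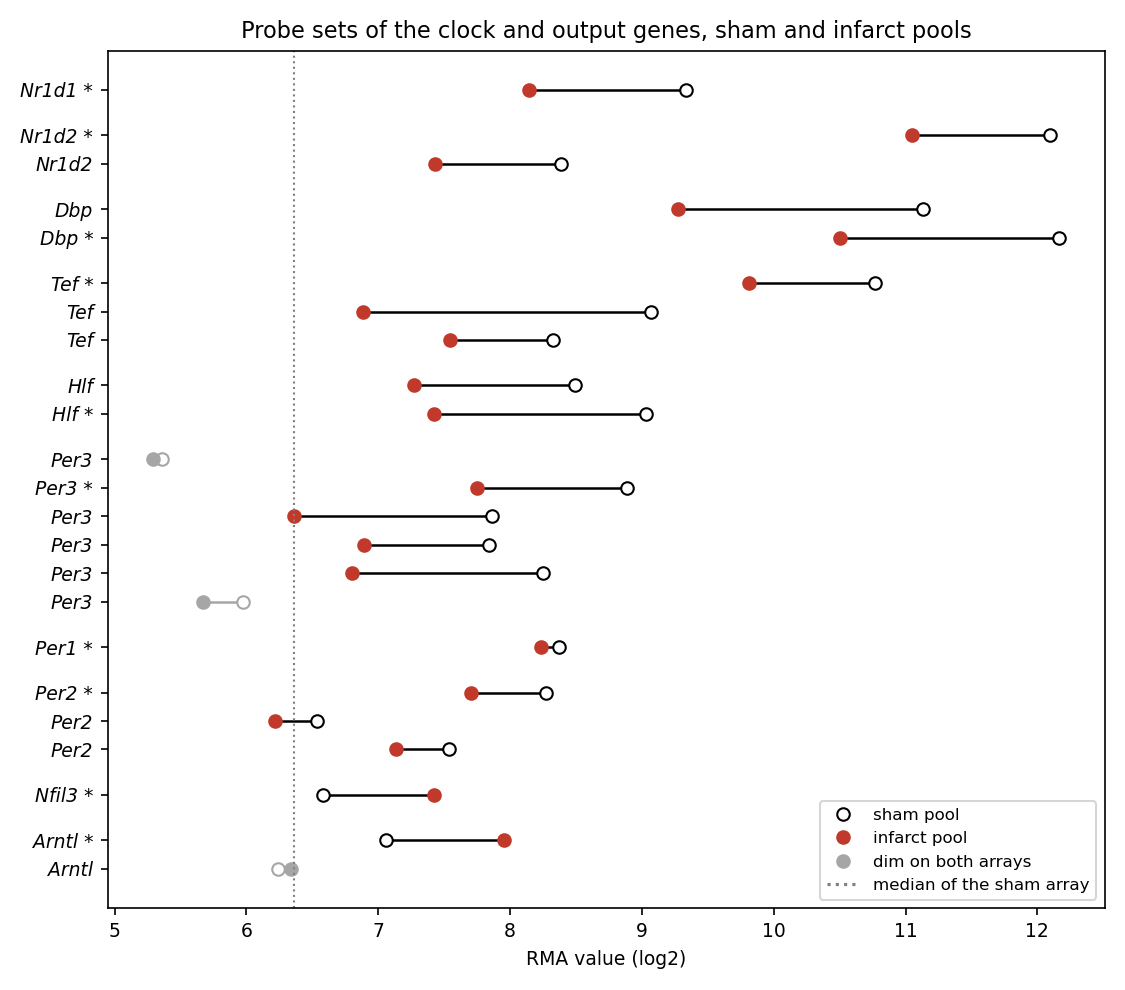
RMA values (log2) of the 23 probe sets of the clock and output genes, 1 row each, of sham hearts (open circles) and of infarcted hearts (red), with grey for those dim on both arrays and the representative probe set of each gene starred. The sham value lies to the right of the infarct value in all 20 probe sets of the day-phase genes and to the left in all 3 of Nfil3 and Arntl.

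Among the PAR bZIP factors, which carry the rhythm of the clock to metabolic genes, Dbp had the largest difference of the 10 genes. Its value was 12.17 in sham hearts and 10.50 in infarcted hearts, 3.18-fold lower (-1.67), which placed it 13 from the lowest of 11961 genes. That probe set can bind several transcripts, and the other one, which does not carry this mark, gave -1.86 (11.13 and 9.27). Both probe sets of Dbp thus showed it lower by more than 3-fold. Hlf went from 9.03 in sham hearts to 7.42 in infarcted hearts, 3.04-fold lower (-1.60), and was 16 from the lowest. Its other probe set gave a smaller difference of -1.23 (8.49 and 7.27). Tef, the third factor of the family, had 10.77 and 9.81, a difference of -0.96 that lay just short of 2-fold. The probe sets of Tef disagreed more than those of its relatives: another gave -2.18 (9.07 and 6.89) and the remaining one -0.78 (8.32 and 7.55). Tef was lower by all 3 probe sets, but by how much depended on the probe set. The 3 factors together had a median of -1.60.

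The REV-ERB receptors, nuclear receptors that bind heme and repress transcription, were lower by similar amounts. Nr1d1, which encodes REV-ERBα, had 9.33 in sham hearts and 8.15 in infarcted hearts, 2.28-fold lower (-1.19) by its only probe set. Nr1d2, which encodes REV-ERBβ, had 12.10 and 11.05, 2.07-fold lower (-1.05), and was just inside the 2-fold threshold. Its other probe set gave -0.96 (8.39 and 7.43). The difference between the receptors, like that between the probe sets of Nr1d2, was under 0.23, the SD between probe sets of the same gene. That SD is no measure of how genes or pools differ.

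The period genes, which encode the inhibitors of BMAL1 and CLOCK, differed among themselves. Per3 had 8.89 in sham hearts and 7.75 in infarcted hearts, 2.21-fold lower (-1.14). The other 3 bright probe sets of Per3 gave -1.50, -0.95 and -1.44, while its dim ones gave -0.065 and -0.31. All 4 probe sets of Per3 with signal above the array median were thus lower, by amounts that depended on the probe set. Per2 went from 8.27 to 7.71, 1.48-fold lower (-0.57), and its other probe sets gave -0.32 (6.53 and 6.22, dim in infarcted hearts) and -0.41 (7.54 and 7.13). Per1, which besides the clock also responds to cAMP signalling and to glucocorticoids, had nearly the same value in both pools, 8.37 and 8.23. This difference of -0.14 was smaller than the SD between probe sets, rested on 1 probe set, and was 0.18 with hybridisation controls as the zero. Per1 was the only day-phase gene whose direction turned under that centring. Per1 and Tef, whose windows both hold the E-box shown above, thus had differences of -0.14 and -0.96.

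The night-phase genes had higher values in infarcted hearts. Arntl, which encodes the activator BMAL1, had 7.06 in sham hearts and 7.96 in infarcted hearts, 1.86-fold higher (0.90). Its second probe set was dim on both arrays (6.24 and 6.34) and gave 0.096. Nfil3, a repressor that competes with the PAR bZIP factors for D-boxes and also acts in immune cells, had 6.58 and 7.42 by its only probe set, 1.78-fold higher (0.84). Neither gene reached 2-fold, and both lay close to the array median in sham hearts, where values carry little signal. Of all genes compared, 4.81% were as high as Arntl or higher and 5.69% as high as Nfil3. Set against their counterparts in the loop, Arntl and Nr1d1 differed from each other by 2.09, Nfil3 and Dbp by 2.50, and Arntl and Per1 by 1.04 in their log2 differences.

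Other core clock genes, listed for their place in the same loop, were divided. Of 11 genes analysed, 8 were compared, of which 4 lay below 0 and 4 above (median -0.049, which lay above 0 with hybridisation controls as the zero). At least 2-fold lower was Ciart alone, an E-box target that represses BMAL1 and CLOCK, with 8.46 in sham hearts and 7.38 in infarcted hearts (-1.08). Cry2, a cryptochrome gene, had 8.51 and 7.56 (-0.95). By contrast, the other cryptochrome gene Cry1, whose daily peak comes later, had 6.86 and 6.87. Its difference of 0.010 lay below 0 under quantile normalization and with housekeeping genes or poly-A controls as the zero. Rora, which encodes the activator of ROREs that REV-ERB proteins oppose, differed by -0.33, with 9 probe sets from -0.70 to 0.036. Clock, the partner of Arntl, had 8.96 and 9.37 (0.40), and all 4 of its probe sets were higher in infarcted hearts. Its paralog Npas2, which peaks with Arntl, was dim on both arrays, with differences of 0.10 and 0.33. Small differences were found for Bhlhe40 (0.24) and Timeless (0.29), both below 0 with housekeeping genes as the zero, and for Arntl2 (-0.11), above 0 with hybridisation controls as the zero. The second probe set of Timeless gave 1.31. Rorb and Bhlhe41 were dim on both arrays.

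Of 8 genes that modify clock proteins, 6 lay below 0, with a median of -0.088, but this count was 8 with housekeeping genes as the zero and 3 with hybridisation controls. Usp2, a deubiquitinase gene that is itself rhythmic in many tissues, had the largest difference, with 11.75 in sham hearts and 10.75 in infarcted hearts, 2.00-fold lower. This lay right at the threshold. Its other probe set gave -0.79, and with hybridisation controls as the zero the difference of Usp2 was -0.68. Next were the kinase gene Dyrk1a (-0.52), whose 3 probe sets ran from -0.52 to 0.097, and the deacetylase gene Sirt1 (-0.40). The casein kinase genes Csnk1d and Csnk1e, whose products phosphorylate PER proteins, had 0.058 and -0.13. Genes known as rhythmic in several tissues, Usp2 among them, went both ways. Of 9 compared, 5 lay below 0 (6 with housekeeping genes and 3 with hybridisation controls as the zero) and 4 above, with a median of -0.043. Nampt, which encodes an enzyme of NAD salvage, had 10.64 and 9.78 (-0.86), while Lonrf3 had 6.43 and 7.13 (0.70). After Usp2, these were the largest differences of the list.

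**Figure D3:**
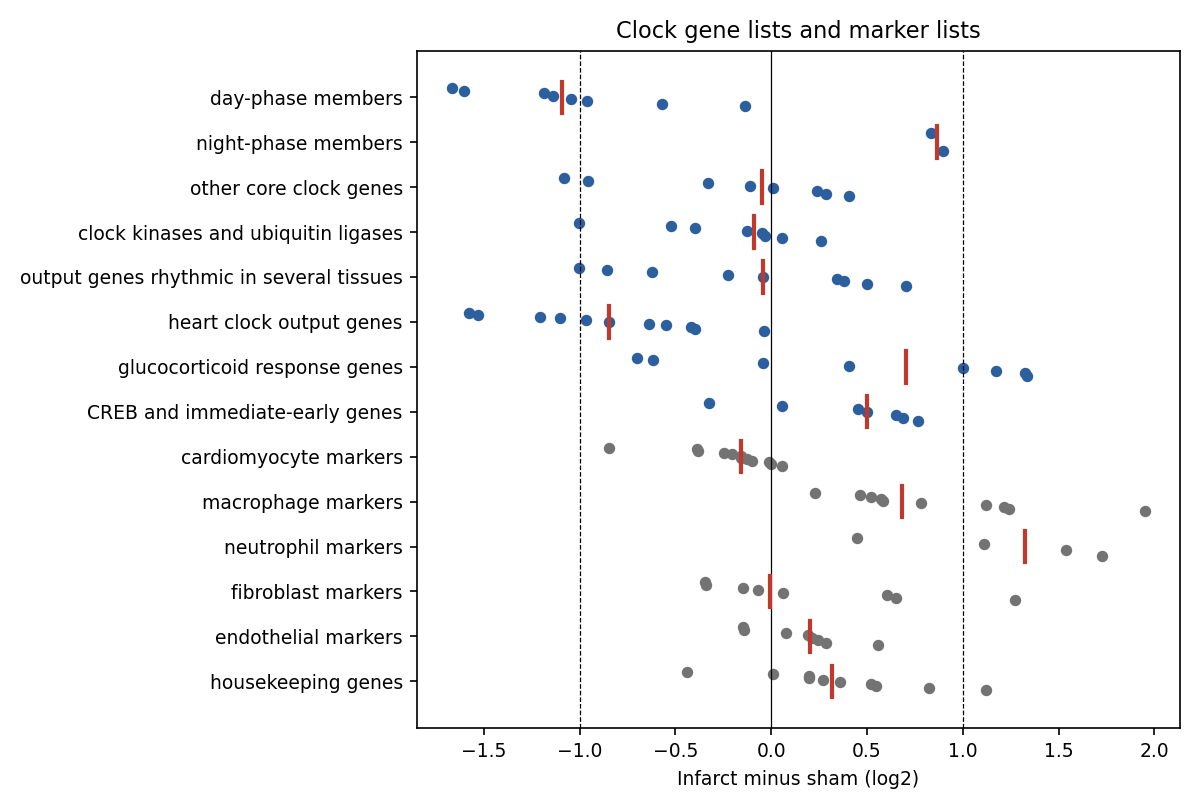
Infarct minus sham (log2) of each gene compared (points) in 8 lists of clock, output and signalling genes (blue) and 6 marker lists (grey), with the median of each list as a red bar and dashed lines at a 2-fold difference. The day-phase genes (median -1.09) and the heart clock output genes (median -0.85) lay to the left, and macrophage (0.68) and neutrophil markers (1.33) to the right.

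Genes reported to depend on the clock in the heart were lower in infarcted hearts. This list was written with some of its members already known to be lower on these arrays, so its direction is not independent. The 11 genes compared had a median of -0.85, all lay below 0 (10 with hybridisation controls as the zero), and 4 were at least 2-fold lower. With hybridisation controls as the zero, 2 of these 4 remained so, Kcnip2 and Ucp3. The 4 genes were Kcnip2 (11.01 in sham hearts and 9.43 in infarcted hearts) and Kcnd2 (9.82 and 8.62), subunits of a potassium channel of repolarisation, Ucp3 (9.58 and 8.05), a mitochondrial carrier, and the transcription factor gene Klf15 (9.63 and 8.52), which links the clock to Kcnip2. The differences were -1.58, -1.21, -1.53 and -1.10. The single probe sets of Kcnip2 ran from -1.64 to -0.30 and those of Kcnd2 from -1.23 to 0.083. Dgat2, an enzyme of triglyceride synthesis, followed with -0.97, whereas Bdh1, an enzyme of ketone body metabolism, had only -0.037 and lay above 0 with hybridisation controls as the zero.

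Glucocorticoids and cAMP signalling act on the clock from outside, and both can induce Per1. These signals were represented by lists of glucocorticoid response genes and of CREB and immediate-early genes. Of 8 glucocorticoid response genes, 4 were at least 2-fold higher in infarcted hearts: Errfi1 (1.33), the cell cycle inhibitor gene Cdkn1a (1.33), Fkbp5 (1.17) and the metallothionein gene Mt2 (1.00). With housekeeping genes as the zero, 0 of the 8 were 2-fold higher, and Fkbp5 was at 0.51 as a mean over its probe sets. Another 3 lay below 0, with Klf9 (-0.70) and Zbtb16 (-0.62) lowest. The list therefore had no single direction, and the probe sets of Fkbp5 ran from -0.28 to 1.17. Of 7 CREB and immediate-early genes, 6 lay above 0 (5 with housekeeping genes as the zero), with a median of 0.50, and none was 2-fold different. The highest were Junb (0.76), Egr1 (0.69) and Crem (0.65), but the 4 probe sets of Crem ran from -0.036 to 0.65.

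Markers of some cell types also differed between the pools, while those of others had no settled direction. The labelled tissue was borne out by its defining genes: the 12 cardiomyocyte markers had values of at least 13.01 in sham hearts and 12.62 in infarcted hearts. Of these, 11 were below 0 (3 with hybridisation controls as the zero), from -0.85 (Tcap, also in the list of heart clock output genes) to 0.055 (Actc1), with a median of -0.16. Their summed linear level in infarcted hearts was 0.89 of that in sham hearts, while that of the day-phase genes was 0.43. The brightest probe sets can be compressed by the normalization, so that these ratios are not on equal terms. Each cardiomyocyte marker with more than 1 probe set was lower by another probe set than by its brightest. The lowest values were -0.85 (Ttn), -0.82 (Atp2a2), -0.67 (Myh6), -0.66 (Ryr2), -0.60 (Tnnt2), -0.34 (Pln) and -0.32 (Myl3). All 10 macrophage markers were higher, from 0.23 to 1.95 (9 with housekeeping genes as the zero), with a summed level 1.49 times that in sham hearts, and so were the 4 neutrophil markers compared (2.72 times). The 7 cell division markers compared were at least 2-fold higher, with a summed level 4.36 times that in sham hearts. Of these markers, Bub1, Aurkb and the neutrophil gene Cxcr2 were dim in sham hearts and entered the comparison only through their higher value in infarcted hearts. The lowest probe set of Top2a gave -0.11 and that of Bub1 0.47, while the highest of Ccna2 and of Aurkb gave 2.01 and 2.09. Of the other lists, fibroblast markers had a median of -0.0042, endothelial ones 0.20, atrial ones -0.12 and adipocyte ones -0.14, each on the other side of 0 under at least 1 centring. The fibroblast markers went both ways, from -0.35 (Dpt) to 1.28 (Postn), with a summed level 1.27 times that in sham hearts. Summed levels were 1.11 times for endothelial, 1.03 for atrial and 0.92 for adipocyte markers, among which Adipoq had -1.52 (7.43 in sham hearts and 5.91, dim, in infarcted hearts). Of 7 lymphocyte markers on the array, 4 were dim on both arrays and 0 of the 3 compared lay above 0, but all 3 did with hybridisation controls as the zero. The part of these shifts in cell type in the differences of the clock genes was not tested, and fewer cells of a type and less RNA per cell cannot be told apart in whole hearts.

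The choice of the zero changed the size of the differences, and for Per1 also the direction. The 10 housekeeping genes compared were on average 0.36 higher in infarcted hearts, the 18 hybridisation controls, added transcripts, 0.32 lower, and the 24 poly-A controls, also added, 0.057 higher. Over all genes, 151 were at least 2-fold lower and 446 higher as deposited, 618 and 202 with housekeeping genes as the zero, 198 and 391 with poly-A controls, and 40 and 962 with hybridisation controls. With poly-A controls as the zero, 6 of the 10 clock genes were at least 2-fold lower (Tef in addition), and the day-phase median was -1.15. On the housekeeping genes, the same number were at least 2-fold lower, and the day-phase median was -1.45. On the hybridisation controls, 2 were 2-fold lower (Dbp and Hlf), 2 were 2-fold higher (Arntl and Nfil3), and the day-phase median was -0.78. Each of these shifts moves all genes alike and leaves the 1.91 between night-phase and day-phase means as it was. With the mean over the probe sets of each gene, that gap was 1.68 and the night-phase mean was 0.67.

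**Figure D4:**
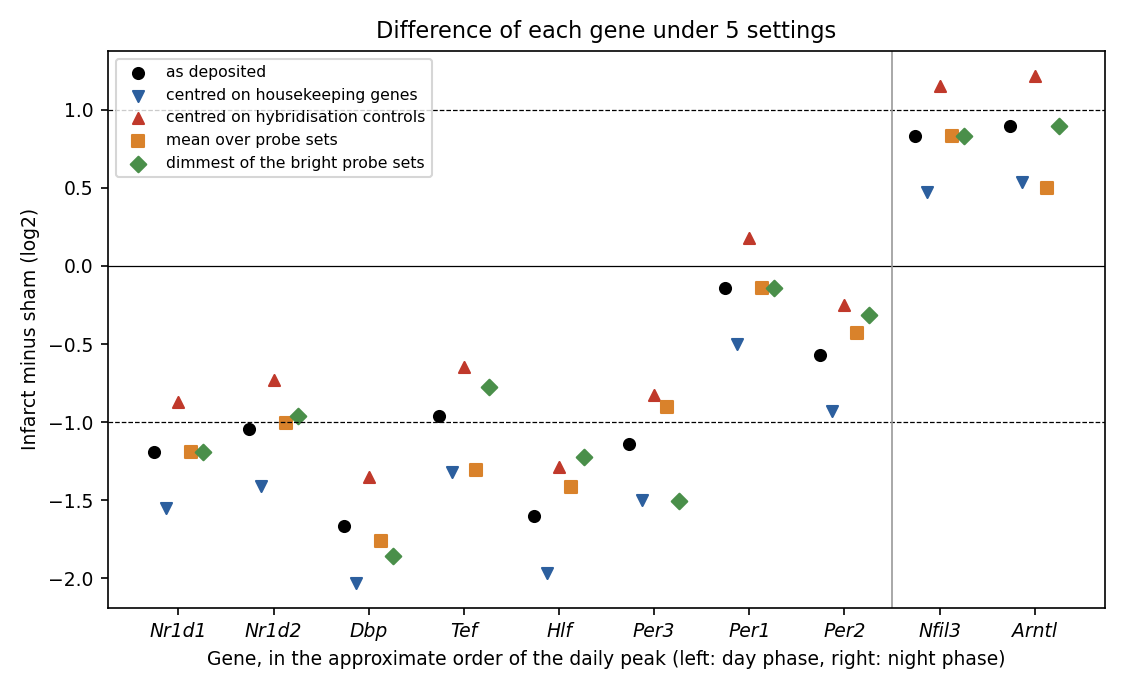
Infarct minus sham (log2) of each of the 10 genes, from left to right in the approximate order of their daily peak, as deposited (black), with housekeeping genes (blue) or hybridisation controls (red) as the zero, as a mean over probe sets (orange) and by the dimmest of the bright probe sets (green). Apart from Per1, which lay at 0.18 with hybridisation controls as the zero, each day-phase gene stayed below 0 and each night-phase gene above 0 in these 5 settings.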

How the data were processed

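Per the labels, the authors deposited RMA values: the probe intensities of GeneChip Mouse Genome arrays were corrected for background, normalized over the 2 arrays and summarised to 1 log2 value per probe set. The version of RMA is not given in the sources used here. Of 45101 probe sets, 34945 carried 1 gene symbol in the annotation of the array, 932 several, 9160 none, and 64 were controls. Only the first kind stood for genes. The array medians were taken over all probe sets, and control probe sets served as alternative zeros. All 23 probe sets of the clock genes matched RefSeq genes of GRCm38.p6 by Entrez identifier.

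With 1 array per group no p-value was computed. Genes were counted at a log2 difference of 1. The named genes were all 10 clock and output genes, all other core clock genes, and the 3 largest differences of each further list. Genes named beyond this rule were chosen after their values were seen. The 10 genes, the 22 lists and the settings were chosen with earlier results of these data known. The 12 alternative settings changed the scaling, the zero, the probe set of a gene, the filter or the threshold. The procedure was run on simulated data with planted differences well above the threshold. This checked the counting alone, and not how well smaller differences are measured. Python 3.11.15 with numpy 2.4.6, pandas 2.3.3, statsmodels 0.14.6 and matplotlib 3.10.9 was used.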

Additional observations from a re-analysis of the deposited data

How the results depend on the processing

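No paired analysis was possible because each group was 1 array, and no array could be left out. With housekeeping genes as the zero, the day-phase median was -1.45, the night-phase mean 0.51 and the median of the other core clock genes -0.41. With hybridisation controls as the zero, these were -0.78, 1.18 and 0.27, and 2 of the 10 genes were at least 2-fold lower and 2 higher. The median of the other core clock genes also lay above 0 as a mean over probe sets (0.010) and with no filter on dim probe sets (0.10). At a log2 difference of 1.4, 2 of the 10 genes were lower, and over all genes 34 were lower and 178 higher, against 151 and 446 at a difference of 1. With the filter at the 75th percentile Arntl and Nfil3 were too dim to be compared, so the night-phase mean has no value there. Of the 10 genes, all but Per1 kept their direction under each alternative that gave a value. The spread between mice and the collection hour limit every value here, and the cause of these dependences beyond the shift of the zero was not tested.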
